A study of Mus musculus with 12 samples.

Results

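The genes described here encode 8 high mobility group (HMG) chromatin proteins: Hmgn1, Hmgn2, Hmgn3 and Hmgn5 of the HMGN family, Hmgb1, Hmgb2 and Hmgb3 of the HMGB family, and Hmga1. They were taken by symbol from the deposited count tables, which list 19921 symbols, and all 8 are present. They were chosen because minP1, the peptide given to the mice, derives from HMGN1. The values come from subcutaneous tumours of Colon26, a mouse colon carcinoma line, grown from 200000 cells in the flank of wild-type BALB/c mice and collected on day 10. There were 4 groups of 3 mice: minP1 plus anti-PD-L1 (the combination), anti-PD-L1 alone, minP1 alone, and control. Anti-PD-L1, an antibody against a checkpoint ligand that restrains T cells, was injected intraperitoneally at 200 µg on days 4 and 8. minP1 was injected by the same route at 0.08 µg on day 9, 1 day before collection. What the control mice received is not given in the sources used here. The labels of the combination name the peptide in the sample titles only, so every result of that group rests on those titles. Each library came from the tumour of a separate mouse, so the spread within a group includes the spread between animals.

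HMGN proteins bind the nucleosome core particle through a short conserved domain and compete with linker histone H1, which makes chromatin less compact. HMGB proteins bend DNA through their HMG boxes, and HMGA proteins bind the minor groove of AT-rich DNA through AT hooks. Hmgb1 and Hmgn1 are also alarmins: released from cells, HMGB1 can signal through RAGE and Toll-like receptors, and HMGN1 can activate dendritic cells through TLR4. The tables measure their transcripts and hold nothing on protein, its release or the injected peptide.

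The unit of the tables was the number of 5′-end tags per gene, so levels were not divided by transcript length. Whether 1 tag stands for 1 molecule is not given in the sources used here. Levels are given below as CPM, counts scaled to a library of 1000000 counts in the tested genes after correction between libraries. Totals ranged from 133917 to 196109 counts in combination libraries, 188008 to 322493 in anti-PD-L1, 276203 to 322613 in minP1 and 285753 to 473273 in control libraries. Bc1 and Lrrc17, a pair of genes with shared sequence, took 2.49% to 6.32% of combination counts and 1.36% to 2.34% of control counts. Ribosomal RNA took 0.889% to 1.22% in the combination and 2.59% to 3.90% in control. Defining carcinoma genes were low, with 2 counts of Krt8 and 16 of Cdh1 over the 12 libraries and a sum over 10 such genes of at most 71.6 CPM, in 1 combination library, in tumours whose cells had been reduced on a Percoll layer before RNA was taken. In such bulk samples, fewer cells of a type and less RNA per cell cannot be told apart.

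The nucleosome-binding core is what unites the 4 HMGN genes and is shown for that reason. Capitals mark the longest stretch of codons whose translation is the same in all 4, with 9 flanking coding bases on each side in lower case (GENCODE M21 transcripts, GRCm38, 5′ to 3′ on the coding strand). Hmgn1 lies at chr16:96127195-96127434, Hmgn2 at chr4:133966471-133966959, Hmgn3 at chr9:83112262-83120375 and Hmgn5 at chrX:109010599-109011424, all on the minus strand. In each gene these bases are spliced from exons 2, 3 and 4.
Hmgn1: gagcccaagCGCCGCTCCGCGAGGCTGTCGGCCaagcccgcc
Hmgn2: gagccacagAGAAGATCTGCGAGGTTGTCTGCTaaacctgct
Hmgn3: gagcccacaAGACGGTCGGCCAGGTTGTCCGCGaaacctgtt
Hmgn5: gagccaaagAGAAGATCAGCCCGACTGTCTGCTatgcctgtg
Of the 24 core bases, Hmgn2 and Hmgn3 each share 16 with Hmgn1, and Hmgn5 shares 14. The core codes for the same residues in all 4 genes, but their transcripts did not follow one pattern across the treatments.

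Hmgn1 (chromosome 16, 96120618 to 96127729, minus strand) was higher in combination tumours. The 3 combination libraries had 973, 1086 and 677 CPM. The 3 anti-PD-L1 libraries had 955, 601 and 620 CPM. The minP1 libraries had 546, 637 and 451 CPM, and the control libraries 678, 519 and 486 CPM. The combination lay above every minP1 library, while its lowest library was level with the highest control, so 2 of 3 combination libraries lay above all controls. Hmgn1 rose by 0.70 ± 0.25 on the log2 scale in the combination against control, a fold of 1.62 (adjusted p = 0.0329, edgeR), and by 0.74 ± 0.25 against minP1 (adjusted p = 0.0392, edgeR). A log2 fold change is given ± its SE throughout, and a level or ratio ± the SD of the 3 libraries. Anti-PD-L1 tumours differed from control by 0.36 ± 0.25 (adjusted p = 0.459), with 1 library high and the groups overlapping. Both Hmgn1 calls also ended with a covariate in the fit. With the share of counts taken by Bc1 and Lrrc17 as the covariate, Hmgn1 was at 0.11 ± 0.26 against control (adjusted p = 0.806, edgeR) and 0.31 ± 0.24 against minP1 (adjusted p = 0.430). With the number of detected genes it was at 0.01 ± 0.31 (adjusted p = 0.982) and 0.25 ± 0.26 (adjusted p = 0.624). With no filter on low counts the adjusted p was 0.105 against control and 0.139 against minP1, at equal depth it was 0.0510 against control, and with a filter at 10 CPM it was 0.0656 against minP1. Both calls depended on single libraries as well: against control the adjusted p was 0.0970 without control replicate 2, 0.118 without control replicate 3, 0.0905 without combination replicate 1 and 0.131 without combination replicate 2. Against minP1 it was 0.0973 without minP1 replicate 1, 0.160 without minP1 replicate 3, 0.111 without combination replicate 1 and 0.151 without combination replicate 2.

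Hmgn2 and Hmgn3 did not pass in any comparison. Hmgn2 (chromosome 4, 133964738 to 133968650, minus strand) ranged over 248 to 448 CPM in the combination, 299.6 to 381 CPM in anti-PD-L1, 254 to 337 CPM in minP1 and 239.6 to 346 CPM in control. Its difference between combination and control was 0.31 ± 0.26 (adjusted p = 0.358, edgeR). Hmgn3 (chromosome 9, 83109948 to 83146685, minus strand) ranged over 68.3 to 131 CPM in the combination, 77.9 to 117 CPM in anti-PD-L1, 56.0 to 128 CPM in minP1 and 53.7 to 91.6 CPM in control. The groups overlapped for both genes, and the largest Hmgn3 difference was 0.59 ± 0.35 in anti-PD-L1 against control (adjusted p = 0.384, edgeR).

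Hmgn5 (chromosome X, 109004534 to 109013404, minus strand), the HMGN member with a long acidic tail, had fewer counts in every tumour that received the antibody than in any other. Its counts were 2, 2 and 6 in combination libraries, 2, 8 and 7 in anti-PD-L1, 12, 20 and 20 in minP1, and 13, 21 and 35 in control libraries. These correspond to 21.0 ± 11.5 CPM in the combination, 22.0 ± 8.98 CPM in anti-PD-L1, 61.4 ± 14.6 CPM in minP1 and 64.1 ± 23.3 CPM in control. Every combination and every anti-PD-L1 library lay below every control and every minP1 library. Hmgn5 fell in the combination against control (-1.55 ± 0.50 log2 units, adjusted p = 0.0190, edgeR) and against minP1 (-1.49 ± 0.51, adjusted p = 0.0407, edgeR). In anti-PD-L1 against control the value was -1.45 ± 0.44, which did not pass (adjusted p = 0.0968, edgeR). It passed with the replicate number as a block (-1.50 ± 0.42, adjusted p = 0.0434) and without control replicate 1 (adjusted p = 0.0421). The combination and anti-PD-L1 differed by -0.10 ± 0.60. The gene passed the filter on low counts through 3 minP1 and 2 control libraries, with no combination or anti-PD-L1 library above the level the filter sets, so its calls are partly fixed by that filter. The 2 calls did not hold with limma voom (adjusted p of 0.0873 against control and 0.124 against minP1). With DESeq2 the adjusted p was 0.0499 against control and 0.0949 against minP1. Against minP1 the call was also lost with only the groups compared (0.0514), with no filter (0.0577) and at equal depth (0.0888). The call against control was lost without control replicate 2 or 3 (adjusted p of 0.0533 and 0.0743) and without combination replicate 1 or 2 (0.0584 and 0.114). That against minP1 was lost without minP1 replicate 2 or 3 (0.0895 and 0.101), anti-PD-L1 replicate 3 (0.0524), or combination replicate 1 or 2 (0.111 and 0.186).

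**Figure D1:**
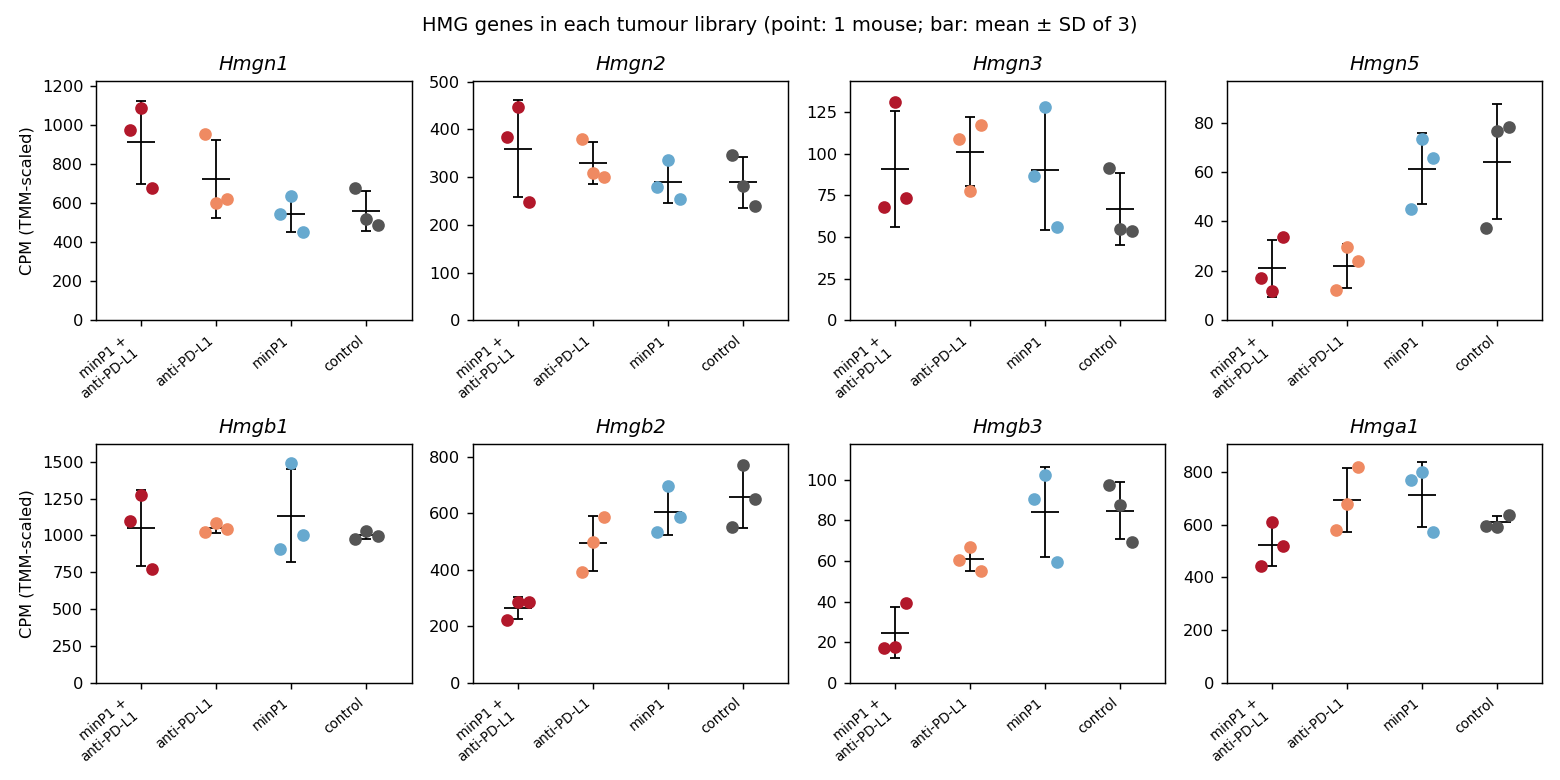
CPM of the 8 HMG genes (vertical axis, linear, from 0) in each tumour library by group, with the combination leftmost and control rightmost. Points are single mice and bars the mean ± SD of 3. Hmgb2 and Hmgb3 combination libraries, at 222 to 288 CPM and 17.1 to 39.5 CPM, sit below every other library, and Hmgn5 is low in both antibody groups.

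Among the HMGB genes, Hmgb2 fell in the combination while Hmgb1 did not pass in any comparison. Hmgb2 (chromosome 8, 57511907 to 57515999, plus strand), a DNA-bending protein that is abundant in dividing cells, had 222, 287 and 288 CPM in combination libraries and 393, 500.5 and 589 CPM in anti-PD-L1 libraries. The minP1 libraries had 534, 696 and 586 CPM, and the control libraries 552, 772 and 652 CPM. All 3 combination libraries lay below every other library. Hmgb2 fell against control (-1.30 ± 0.24 log2 units, a ratio of 0.407, adjusted p = 0.000334, edgeR), against minP1 (-1.18 ± 0.25, adjusted p = 0.00182, edgeR) and against anti-PD-L1 (-0.89 ± 0.25, adjusted p = 0.0289, edgeR). It was the only 1 of the 8 genes to pass in the last of these comparisons. There the call was lost without anti-PD-L1 replicate 2 or 3 (adjusted p of 0.0883 and 0.166) and without combination replicate 1 or 2 (0.140 and 0.0763). In anti-PD-L1 against control Hmgb2 differed by -0.40 ± 0.23 (adjusted p = 0.363), and the groups overlapped.

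Hmgb3 (chromosome X, 71555918 to 71560676, plus strand), a family member best known from embryonic tissue and blood progenitors, was lower in the combination as well. Its counts were 2, 3 and 7 in combination libraries, 10, 18 and 16 in anti-PD-L1, 24, 28 and 18 in minP1, and 34, 24 and 31 in control libraries. Its levels were 24.8 ± 12.7 CPM in the combination, 60.8 ± 5.82 CPM in anti-PD-L1, 84.0 ± 22.3 CPM in minP1 and 84.8 ± 14.2 CPM in control. Every combination library lay below every other library, and every anti-PD-L1 library lay below every control. Hmgb3 fell against control (-1.69 ± 0.42 log2 units, adjusted p = 0.00344, edgeR) and against minP1 (-1.68 ± 0.43, adjusted p = 0.00759, edgeR). Of the 3 combination libraries 1 was above the level that the filter on low counts sets, and all 3 were in each other group. Hmgb3 thus passed the filter through the groups where it is high, and its calls are partly fixed by that filter. The call against minP1 was lost at equal depth (adjusted p = 0.0751) and without combination replicate 2 (adjusted p = 0.0571). Against anti-PD-L1 the difference was -1.22 ± 0.45 (adjusted p = 0.0967, edgeR) and did not pass.

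Hmgb1 (chromosome 5, 149046702 to 149184489, minus strand), the alarmin of the HMGB family, was the most abundant of the 8 genes. It ranged over 773 to 1277 CPM in the combination, 1021 to 1083 CPM in anti-PD-L1, 907 to 1494 CPM in minP1 and 979 to 1031 CPM in control. Control and anti-PD-L1 libraries lay close together, and the other groups spread around them on both sides. Its difference from control was 0.07 ± 0.24 in the combination, 0.07 ± 0.23 in anti-PD-L1 and 0.18 ± 0.23 in minP1 (adjusted p of 0.853, 0.916 and 0.930, edgeR). Hmga1 (chromosome 17, 27556497 to 27563674, plus strand), an AT-hook protein of growing and transformed cells, ranged over 444 to 609 CPM in the combination, 580 to 819.7 CPM in anti-PD-L1, 573 to 798 CPM in minP1 and 592 to 636 CPM in control. The combination overlapped each other group. The Hmga1 difference was -0.21 ± 0.23 against control (adjusted p = 0.502), -0.44 ± 0.23 against minP1 (adjusted p = 0.176) and -0.40 ± 0.23 against anti-PD-L1 (adjusted p = 0.296, edgeR).

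In the combination against control, 4 of the 8 genes passed, 1 higher (Hmgn1) and 3 lower (Hmgn5, Hmgb2 and Hmgb3). In that comparison 34.8% of the 5443 genes tested passed, 16.5% higher and 18.3% lower, so the count for these genes is near the background. The groups did not overlap for 3 of the 8, all lower, against 45.9% of all genes tested (20.4% higher and 25.5% lower). The median log2 fold change of the 8 genes was -0.07, and that of all genes tested -0.06. Against minP1 the same 4 genes passed in the same directions, beside 20% of all genes tested (9.19% higher and 10.8% lower). The groups did not overlap for those 4 either, against 37.5% of all genes tested (16.6% higher and 20.9% lower). The medians there were -0.27 for the 8 genes and -0.09 for all. Against anti-PD-L1 1 of 8 passed, beside 6.94% of all (2.99% higher and 3.95% lower). There Hmgb2 and Hmgb3 did not overlap, both lower, against 27.3% of all genes tested (12.4% higher and 14.9% lower). The comparisons with the combination share its 3 libraries, so they are not independent of each other.

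**Figure D2:**
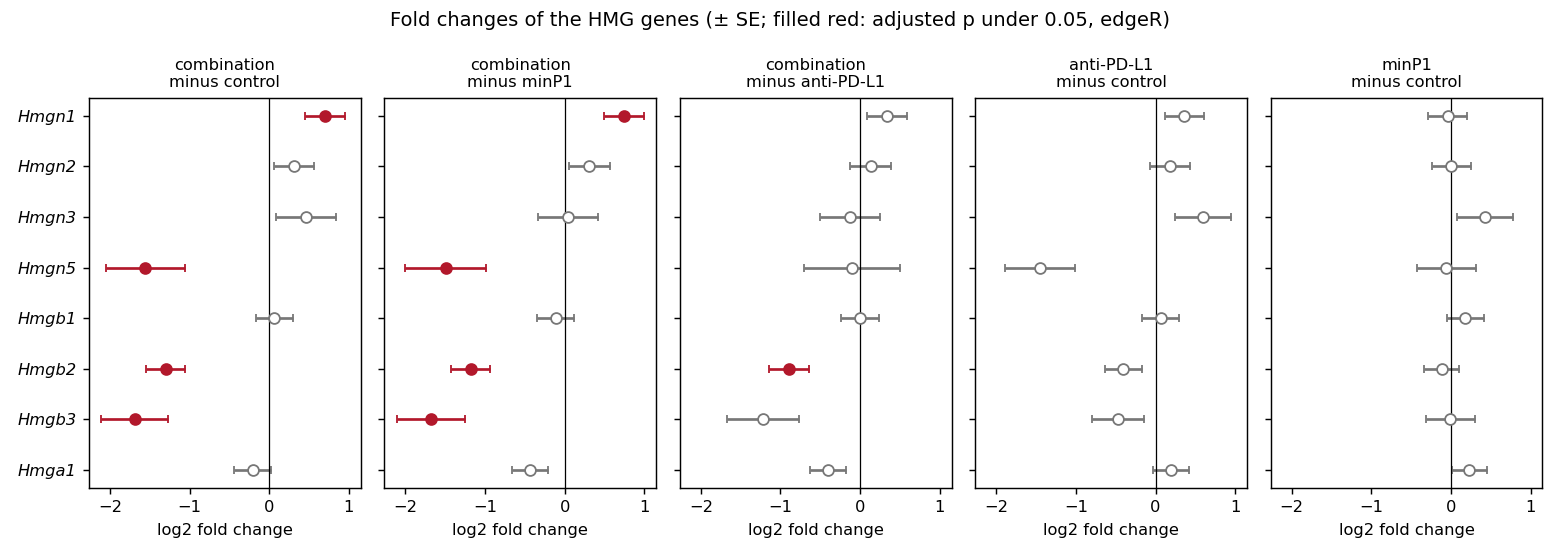
Log2 fold changes of the 8 HMG genes (horizontal axis, ± SE, edgeR) in 5 comparisons, 1 panel each. Filled red points have an adjusted p under 0.05. The combination panels hold 4, 4 and 1 such points, and anti-PD-L1 and minP1 against control hold 0.

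In anti-PD-L1 against control 0 of 8 genes passed, beside 1.12% of all genes tested, and Hmgn5 passed there with the replicate block as given above. Limma voom called 0 of 8 there and DESeq2 0, and 1 of the 8, Hmgn5, had an unadjusted p under 0.05. The groups did not overlap for Hmgn5 and Hmgb3, both lower, while 23.5% of all genes tested did not overlap (11.1% higher and 12.3% lower). In minP1 against control 0 of 8 passed, beside 0% of all genes tested. Limma voom and DESeq2 also called 0 of the 8, and over all genes tested limma voom called 0 and DESeq2 1, while 383 had an unadjusted p under 0.05 with edgeR. All 8 genes overlapped between these groups, while 12.4% of all genes tested did not (5.7% higher and 6.69% lower). No unadjusted p of the 8 was under 0.05, and Hmgn3 had the largest difference at 0.43 ± 0.35. Hmgn1, the parent gene of the peptide, stood at 545 ± 93.0 CPM in minP1 and 561 ± 103 CPM in control. The interaction asked whether the step from anti-PD-L1 to the combination differed from the step from control to minP1. It called 0 of 8, beside 0% of all genes, with edgeR, and 600 of all genes tested had an unadjusted p under 0.05. Limma voom and DESeq2 also called 0 of the 8, and over all genes limma voom called 0 and DESeq2 24, of which 6 were higher and 18 lower. Of the 8, 2 had an unadjusted p under 0.05, Hmgb2 at -0.77 ± 0.33 (adjusted p = 0.408) and Hmgb3 at -1.21 ± 0.55 (adjusted p = 0.431). For Hmgn1 the interaction was 0.38 ± 0.35 (adjusted p = 0.749).

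Ratios of 2 genes in the same library do not depend on how libraries were scaled, and they show how the make-up of the family differed. The ratio of Hmgb2 to Hmgb1 counts was 0.202, 0.224 and 0.372 in combination libraries and 0.385, 0.462 and 0.564 in anti-PD-L1 libraries. It was 0.589, 0.466 and 0.586 in minP1 libraries and 0.564, 0.748 and 0.654 in control libraries. The combination lay below every other library, with a mean of 0.266 ± 0.0927 against 0.655 ± 0.0920 in control. The ratio of Hmgb3 to Hmgb1 was 0.0269 ± 0.0210 in the combination, 0.0579 ± 0.00456 in anti-PD-L1, 0.0758 ± 0.0211 in minP1 and 0.0847 ± 0.0149 in control, again with no overlap between the combination and any other group. The gap is narrow, from 0.0511 in the highest combination library to 0.0528 in the lowest anti-PD-L1 library, and the combination ratios rest on 2, 3 and 7 counts of Hmgb3. The ratio of Hmgn1 to Hmgn2 was 2.56 ± 0.152 in the combination, 2.18 ± 0.293 in anti-PD-L1, 1.88 ± 0.0910 in minP1 and 1.94 ± 0.0929 in control. Its combination range, 2.43 to 2.73, lay above every minP1 and control library and overlapped anti-PD-L1, which reached 2.51. The ratios are given as a description with no p, since an exact 2-sided permutation test of 3 libraries against 3 cannot give a p under 0.1. Hmgb1 and Hmgn2, the denominators of the ratios given so far, have near-identical copies in the tables, described below, so their counts are uncertain. Hmgn5 over Hmgn1 was 0.0262 ± 0.0209 in the combination and 0.121 ± 0.0580 in control. It was 0.0336 ± 0.0189 in anti-PD-L1 and 0.115 ± 0.0316 in minP1, and its values in both antibody groups rest on at most 8 counts of Hmgn5. Hmgb2 over Hmgn1 was 0.306 ± 0.105 in the combination and 1.21 ± 0.353 in control. It was 0.732 ± 0.283 in anti-PD-L1 and 1.12 ± 0.162 in minP1. Ratios of the remaining gene pairs were not examined. Of single genes tested, 45.9% did not overlap between combination and control.

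**Figure D3:**
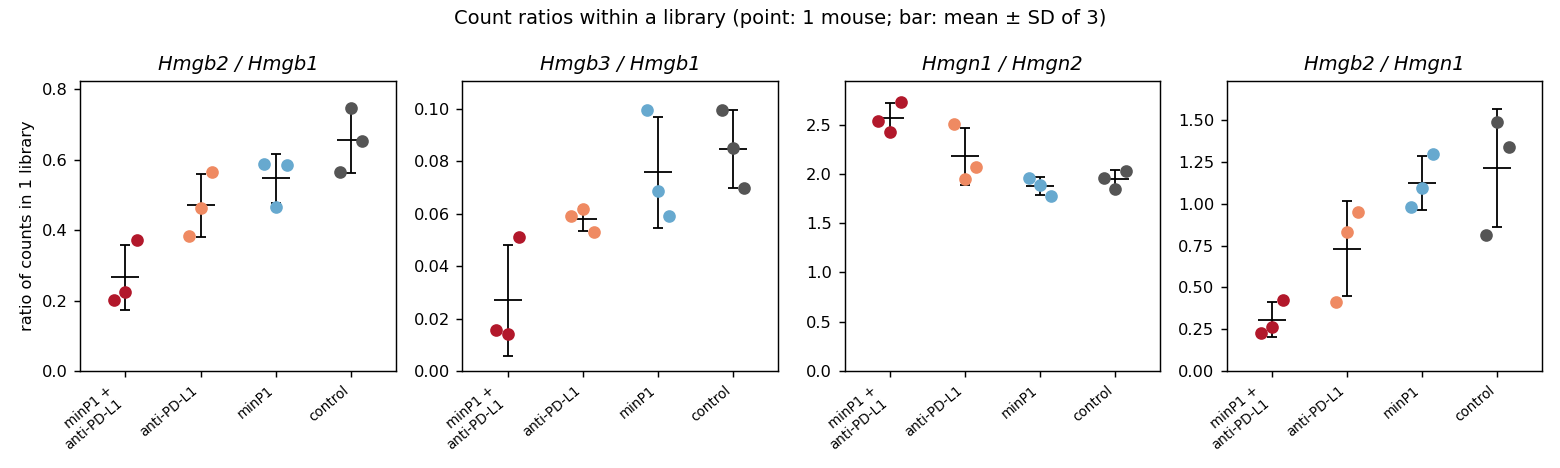
Ratio of the counts of 2 HMG genes in the same library (vertical axis, linear, from 0) by group, combination leftmost and control rightmost. Points are single mice and bars the mean ± SD of 3. Hmgb2 over Hmgn1 is 0.306 ± 0.105 in the combination and 1.21 ± 0.353 in control.

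As a share of the 8 genes' own counts, Hmgn1 took 25.5% to 30.2% in combination libraries and 15.1% to 20.1% in control libraries. Hmgb2 took 6.88% to 10.9% in the combination and 16.4% to 22.6% in control. Neither pair of ranges overlapped, while 45.9% of single genes tested did not overlap between combination and control. In anti-PD-L1 libraries Hmgn1 took 17.4% to 27.2%, which reaches into the combination range, and Hmgb2 took 11.2% to 16.5%. Shares of the same total are linked, so a lower share of Hmgb2 raises the shares of the other genes. Together the 8 genes took 0.266% to 0.330% of all counts in the combination and 0.303% to 0.327% in control, ranges that overlap. In control the order by mean level was Hmgb1 (1002 ± 26.6 CPM), Hmgb2 (659 ± 110), Hmga1 (608 ± 24.4), Hmgn1 (561 ± 103), Hmgn2 (289 ± 53.8), Hmgb3, Hmgn3 (66.7 ± 21.5) and Hmgn5. Hmgb2, Hmga1 and Hmgn1 lay within each other's spread there, as did the last 3 genes. In the combination Hmgn1 (912 ± 211 CPM) stood next to Hmgb1 (1050 ± 256 CPM), within its spread, and Hmgb2 (265 ± 37.6 CPM) stood below Hmga1 (524 ± 82.5 CPM) and Hmgn2 (360 ± 102 CPM).

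Promoter sequences are shown for the 4 genes that passed. They are the 250 bases before the RefSeq transcript start (GRCm38.p6, 5′ to 3′ on the gene's strand), and capitals mark the CCAAT box, CCAAT or its reverse complement ATTGG. RefSeq promoters were matched for 7 of the 8 genes, all but Hmgn3. The Hmgb2 stretch is chr8:57511593-57511842 (plus), Hmgb3 chrX:71555667-71555916 (plus), Hmgn5 chrX:109013381-109013630 (minus) and Hmgn1 chr16:96127726-96127975 (minus).
Hmgb2: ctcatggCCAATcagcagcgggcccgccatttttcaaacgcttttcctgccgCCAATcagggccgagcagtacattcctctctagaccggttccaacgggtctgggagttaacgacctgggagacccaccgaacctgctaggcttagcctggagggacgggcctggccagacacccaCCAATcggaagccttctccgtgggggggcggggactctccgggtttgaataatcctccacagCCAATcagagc
Hmgb3: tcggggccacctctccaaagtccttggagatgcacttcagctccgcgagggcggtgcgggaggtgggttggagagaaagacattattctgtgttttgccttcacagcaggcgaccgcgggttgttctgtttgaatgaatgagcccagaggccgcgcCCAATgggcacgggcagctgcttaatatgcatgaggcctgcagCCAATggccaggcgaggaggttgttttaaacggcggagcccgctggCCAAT
Hmgn5: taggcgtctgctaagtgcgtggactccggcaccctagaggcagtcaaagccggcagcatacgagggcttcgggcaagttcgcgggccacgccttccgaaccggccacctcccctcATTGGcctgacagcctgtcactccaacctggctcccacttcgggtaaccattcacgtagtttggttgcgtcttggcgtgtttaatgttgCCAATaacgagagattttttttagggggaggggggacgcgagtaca
Hmgn1: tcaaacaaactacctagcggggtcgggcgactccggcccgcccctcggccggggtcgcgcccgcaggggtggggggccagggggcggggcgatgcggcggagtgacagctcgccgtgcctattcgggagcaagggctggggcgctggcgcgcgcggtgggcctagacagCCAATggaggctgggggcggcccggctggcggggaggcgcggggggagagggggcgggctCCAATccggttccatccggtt
The Hmgb2 stretch holds 4 CCAAT boxes, the nearest 7 to 11 bases before the start. Hmgb3 holds 3, Hmgn1 2 and Hmgn5 2. Of the uncalled genes, Hmgb1 holds 3 in 1 of its 2 RefSeq promoters, and Hmgn2 and Hmga1 hold none. Of 32851 RefSeq mouse promoters of the same length, 33.85% hold a CCAAT box. The cell-cycle homology element, searched as TTTGAA or TTCAAA, is present in Hmgb2 and Hmgb3 among the 7 genes and in 15.99% of all promoters. The GC box, searched as GGGCGG or CCGCCC, is present in all 7 except Hmgn5, against 32.74% of all promoters. TATAAA and its reverse complement and E2F-type sites (TTTCGCGC, TTTGGCGC, TTTCCCGC and reverse complements) are not in these 250 bases of the 7 genes, and 12.37% and 1.534% of all promoters hold them. A match is a stretch of letters and was not tested for binding.

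Several HMG genes have processed copies elsewhere in the genome, and how the authors' counting shared reads among them is not given in the sources used here. Matches of at least 95% identity over at least 50 bases were searched between the 8 genes and all GENCODE M21 transcripts. Hmgb1 had 39 such genes, all pseudogenes, of which Gm21596 is in the tables with 946 counts over the 12 libraries beside 3266 of Hmgb1, and its match covers the first 100 bases of Hmgb1, where 5′ tags start. Hmgn2 had 12, of which Gm7931 is in the tables with 808 counts beside 945 of Hmgn2, and Gm6750 with 42. Hmgb2 had 5, of which Gm13237 is in the tables with 254 counts beside 1701 of Hmgb2. Hmga1 had 1, Hmga1b, with 301 counts beside 2013. Within the first 100 bases Hmgb1 and Hmga1 had 1 such match each, and Hmgn2 and Hmgb2 had 0. Since the assignment of reads is not given, counts of these 4 members remain uncertain. Hmgn1 and Hmgb3 had copies (4 and 1) with no row in the tables, Hmgn5 had 1 of the same kind, and Hmgn3 had none.

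No copy passed in any comparison. Gm13237 was at 48.4 ± 18.9 CPM in the combination and 96.6 ± 37.99 CPM in control, a difference of -0.997 ± 0.44 (adjusted p = 0.0780, edgeR), and took 14.97% of the counts of Hmgb2 and the copy together in the combination and 12.8% in control. Gm7931 was at 318 ± 68.0 CPM in the combination and 224 ± 83.5 CPM in control, 0.50 ± 0.28 (adjusted p = 0.171), and Gm21596 at 297 ± 108 CPM in the combination and 285 ± 50.1 CPM in control. With copies added to their member, an alternative chosen after the data were seen, the number of the 8 genes that passed was the same in each of the 6 comparisons. Of the genes that overlap a member's locus, those with the most counts are Uspl1 (111 counts) and AI413582 (221 counts), both on the opposite strand. Uspl1 overlaps 140 bases at the outermost 5′ end of the annotated Hmgb1 locus, away from the RefSeq starts of Hmgb1. AI413582 overlaps Hmga1. The counting is not stated to use strand, and without it reads within these overlaps cannot be told apart from the member's.

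**Figure D4:**
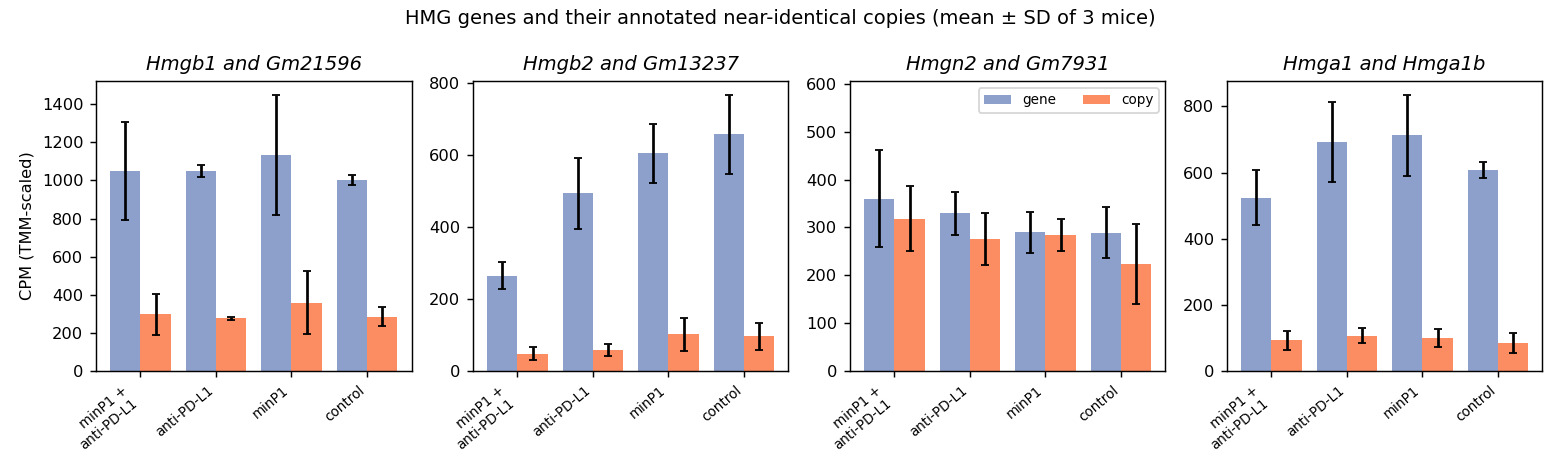
CPM (vertical axis, linear, from 0) of 4 HMG genes (blue) and the near-identical copy with most counts in the tables (orange), by group, as mean ± SD of 3 mice. Gm7931 is close to the level of Hmgn2 in every group, at 224 to 318 CPM, and the Hmgb2 copy stays between 48.4 and 102 CPM.

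Genes of other nucleosome-handling proteins differed in both directions in the combination. Of the list of histone variants, histone chaperones and heterochromatin proteins, 24 of 27 genes in the tables were tested and 15 passed in the combination against control, 5 higher and 10 lower, beside the 16.5% higher and 18.3% lower of all genes tested. The chaperone Npm1 was at 793 ± 84.0 CPM in the combination and 2181 ± 228 CPM in control and fell (-1.46 ± 0.22, adjusted p = 3.05e-05, edgeR). Anp32e, which removes H2A.Z from chromatin, was at -2.07 ± 0.34, nucleolin (Ncl) at -1.28 ± 0.25 and the H2A.Z gene H2afv at -3.16 ± 0.63, and all 3 passed with no overlap. H2afv was at 7.74 ± 6.71 CPM in the combination and 80.7 ± 22.9 CPM in control. Its combination mean is under the level that the filter on low counts sets, so its call is partly fixed by that filter. The list's median was -0.38, against -0.06 for all genes tested. Against anti-PD-L1 4 of 24 passed, all lower, beside 3.95% of all genes lower, and in either single treatment against control 0 did. Linker histones, the competitors of HMGN proteins, were barely measured: 2 of 7 genes in the tables were tested and neither H1f0 (0.31 ± 0.24) nor H1fx (-0.52 ± 0.38) passed. Most replication-dependent histone mRNAs lack a poly(A) tail, and the libraries were made from polyadenylated RNA.

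Other genes with HMG motifs were mixed. Of the 21 that the tables list, 12 were tested, and in the combination against control 1 rose and 2 fell, a share under the 34.8% of all genes that passed. Wdhd1, a replication factor with an HMG box, rose by 1.46 ± 0.34 (adjusted p = 0.00226, edgeR), and the chromatin remodeller subunit Pbrm1 and the ribosomal RNA transcription factor Ubtf fell (-2.47 ± 0.39 and -1.66 ± 0.43). Hmga2, the relative of Hmga1, was at 437 ± 105 CPM in the combination and 293 ± 56.7 CPM in control and did not pass (0.56 ± 0.24, adjusted p = 0.0764). Of the receptors and adaptors through which extracellular HMGB1 and HMGN1 act, 5 of 15 genes in the tables were tested and 3 rose in the combination against control, beside 16.5% of all genes higher. Cd24a, which binds HMGB1, rose by 3.07 ± 0.57, the chemokine receptor Cxcr4 by 2.50 ± 0.73 and the signalling adaptor Traf6 by 1.40 ± 0.47, while Cd14 was at 0.73 ± 0.40 (adjusted p = 0.157, edgeR). Cd24a passed the filter on low counts through the combination libraries only (101 ± 56.6 CPM there, 10.7 ± 6.77 CPM in control), so its call is partly fixed by that filter. Cxcr4 and Traf6 had control means under the filter level as well, at 6.17 and 22.5 CPM. Tlr4, with 46 counts over the 12 libraries, and Ager, the gene of RAGE, with 4, were too low to test. Neither list had a gene that passed in a single treatment against control.

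Few cell cycle genes passed in the combination, and those that did were lower. Of 22 cell cycle genes 20 were tested, and 4 fell and 0 rose in the combination against control, a share under the 34.8% of all genes. The number lower is near the background, with 18.3% of all genes tested lower and 16.5% higher. Of the 20, 5 had a log2 fold change above 0, the largest that of Mcm5 (0.72 ± 0.29, adjusted p = 0.0567, edgeR). Mki67, the standard proliferation antigen, was at 14.3 ± 7.32 CPM in the combination and 115 ± 20.0 CPM in control. Its combination mean is under the level that the filter on low counts sets, so its call there is partly fixed by that filter. Top2a (-1.37 ± 0.28), Rrm2 (-1.20 ± 0.37) and the replicative helicase subunit Mcm6 (-1.32 ± 0.46) fell as well. The other 16 did not pass, and the 22 genes summed to 3498 to 4709 CPM in the combination and 4300 to 5870 CPM in control libraries, ranges that overlap. In anti-PD-L1 against control 1 gene passed, Mki67, lower.

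Markers of other cells also differed between the groups, in a comparison in which 16.5% of all genes tested were higher and 18.3% lower. Neutrophil markers summed to 603 to 683 CPM in the combination and 325 to 386 CPM in control, and 4 of 5 tested rose and 1 fell. Macrophage markers summed to 1916 to 4174 CPM in the combination and 1019 to 1240 CPM in control, and 3 of 6 tested rose and 1 fell. T cell markers summed to 141 to 179 CPM in the combination and 32.9 to 69.4 CPM in control, with 1 gene tested, which rose. Pan-leukocyte markers summed to 943 to 1238 CPM in the combination and 720 to 905 CPM in control, and 2 of 8 tested rose and 1 fell, near the share of all genes. B cell markers summed to 41.8 to 45.1 CPM in the combination and 6.72 to 14.3 CPM in control, and the 1 gene tested, Pax5, rose (2.30 ± 0.72). That sum is nearly Pax5 alone, with 74 counts over the 12 libraries beside 3 each of Cd79b and Ms4a1. Ms4a1 was at 1.88 CPM in the combination and 1.70 CPM in control. Pax5 was at 32.5 ± 25.8 CPM in minP1 and 7.75 ± 3.50 CPM in control. In each of these lists the combination lay above every control. Fibroblast sums were 739 to 1221 CPM in the combination and 933 to 1359 CPM in control, which overlap, and 2 of 4 tested fell, Col1a2 (-0.81 ± 0.21) and Pdgfra (-2.05 ± 0.57). Erythroid sums were 863 to 2274 CPM in the combination and 1414 to 2801 CPM in control, which also overlap, and 2 of 4 tested fell, the globin genes Hbb-b1 (-4.09 ± 0.64) and Hbb-b2 (-5.26 ± 0.82). Pdgfra, Hbb-b1 and Hbb-b2 had combination means of 16.3, 10.4 and 1.88 CPM, under the level that the filter on low counts sets. The control mean of Pax5 was under that level as well. The calls of these genes are therefore partly fixed by that filter. Endothelial sums were 23.9 to 76.8 CPM in the combination and 7.31 to 28.6 CPM in control. The 10 carcinoma genes in the tables summed to 5.64 to 71.6 CPM in the combination and 7.31 to 26.9 CPM in control, and no endothelial or carcinoma gene was tested. The part of cell make-up in the HMG differences was not tested.

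The share of Bc1 and Lrrc17 and the number of detected genes moved with the groups, and the 4 called genes responded to them unequally. With the Bc1 and Lrrc17 share in the fit, Hmgb2 was at -1.31 ± 0.30 (adjusted p = 0.00317, edgeR) and Hmgb3 at -1.89 ± 0.52 (adjusted p = 0.0137) in the combination against control, while Hmgn1 did not pass, as given above, and Hmgn5 was at -1.17 ± 0.62 (adjusted p = 0.211). With the number of genes detected at equal depth in the fit, none of the 8 passed in that comparison. Hmgb2 was at -1.02 ± 0.33 (adjusted p = 0.0581), Hmgb3 at -1.77 ± 0.56 (adjusted p = 0.0504) and Hmgn5 at -0.81 ± 0.67 (adjusted p = 0.486), with Hmgn1 as given above. With this covariate Hmgb2 (adjusted p = 0.0394) and Hmgb3 (adjusted p = 0.0429) passed against minP1, and Hmgn1 and Hmgn5 did not. Against anti-PD-L1 Hmgb2 passed (adjusted p = 0.0429). The number of detected genes was 9811 to 10448 in combination and 10579 to 11611 in control libraries, which do not overlap, so it and the treatment cannot be told apart.

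**Figure D5:**
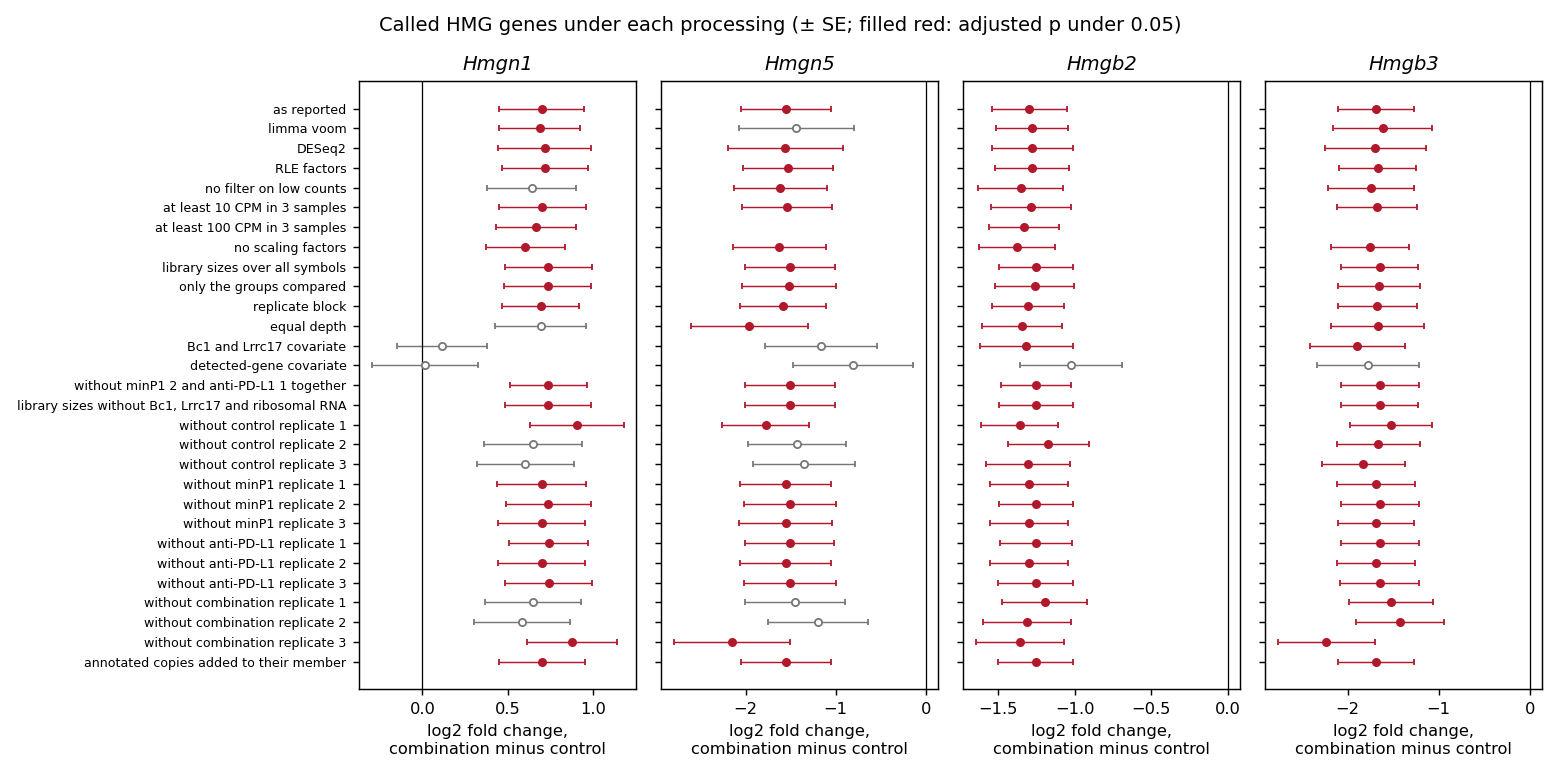
Log2 fold change of the 4 called HMG genes in the combination against control (horizontal axis, ± SE) under each processing alternative (vertical axis, 1 row each). Filled red points have an adjusted p under 0.05. Hmgb2 and Hmgb3 lie below 0 in every row in which they were tested, and Hmgn1 reaches 0.01 with the detected-gene covariate.

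As a description over all 12 libraries, which differ in depth and treatment, the genes whose log2 CPM followed Hmgn1 most closely were Hscb (Pearson's r of 0.97), Cnbp (0.96), Pomp (0.96), Rps2 (0.95) and Btf3 (0.95). Of these Cnbp, a nucleic acid-binding protein, was at 1618 ± 344 CPM in the combination and 813 ± 228 CPM in control. Those that followed Hmgb2 most closely were Rpl13 (0.98), S100a4 (0.98), Rps10 (0.97), Npm1 (0.97) and Rpl13-ps6 (0.97), and S100a4, a calcium-binding protein, was at 1311 ± 244 CPM in the combination and 3988 ± 530 CPM in control. Of the 10 genes, 9 passed in the combination against control, all but Hscb (2.01 ± 0.79, adjusted p = 0.0519, edgeR), beside 34.8% of all genes tested. They were picked for likeness to Hmgn1 and Hmgb2, which passed there, over the same libraries, so that count was largely fixed in advance.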

How the data were processed

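The authors deposited 1 table of raw, whole-number counts by gene symbol for each library. The submitters' processing notes name Bowtie2 2.2.5, R 3.6.1, DESeq2 and mm10. What each did, and how reads were assigned to genes, by strand or among several matches, is not given in the sources used here. Nothing in the labels mentions molecular identifiers, and 1 molecule may have given several reads.

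Genes were kept with edgeR's filterByExpr at its defaults, about 34.8 CPM in at least 3 libraries, which left 5443 genes and all 8 members and removed 14478. Library sizes, summed over the tested genes, were scaled with TMM factors. The test was the quasi-likelihood F test of edgeR 4.0.16 (R 4.3.3) on 12 libraries and 4 group means. P-values were adjusted by Benjamini-Hochberg over the 5443 genes within each comparison (6 in all), and an adjusted p under 0.05 passed. Fold changes had a prior count of 0.125, and SEs were derived from the F statistic. The biological coefficient of variation was 22.5%. All p-values in the text come from this test unless another tool is named. Copies were searched with blastn 2.17.0.

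The 8 members, the gene lists and the rules were chosen with earlier results of these data known. All 8 members are named, with up to 4 tested genes of each pathway list by smallest p in the combination against control, and the 5 genes closest to Hmgn1 and to Hmgb2 by Pearson's r of log2 CPM (prior count 2). Other genes named were chosen after their values were seen. The fit was checked on simulated data. Alternatives were limma voom (3.58.1), DESeq2 (1.42.0), other scalings and filters, covariates, equal depth, a replicate block and leaving out libraries. Replicates differed beyond counting noise (chi-square per degree of freedom of 1.68 to 6.07), so none was counted as a duplicate.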

Additional observations from a re-analysis of the deposited data

How the results depend on the processing

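The number of the 8 HMG genes that passed was 0 in minP1 against control and in the interaction under every alternative run. In anti-PD-L1 against control it was 0, with 1 (Hmgn5) under the replicate block and 0 to 1 when leaving out 1 library (1 without control replicate 1). In the combination against control it was 4, with 3 in each of limma voom, no filter and equal depth, 2 at 100 CPM or more in 3 libraries (where Hmgn5 and Hmgb3 were not tested), 2 with the Bc1 and Lrrc17 covariate, 0 with the detected-gene covariate, and 2 to 4 when leaving out 1 library. In the combination against minP1 it was 4, with 3 in each of limma voom, DESeq2, only the groups compared, 10 CPM and leaving out both minP1 2 and anti-PD-L1 1, 2 in each of no filter, 100 CPM, equal depth and either covariate, and 1 to 4 when leaving out 1 library. In the combination against anti-PD-L1 it was 1, and 0 to 1 when leaving out 1 library. Over all genes the counts ranged over 0 to 51 in minP1 against control (51 with no filter), 0 to 62 in the interaction (62 leaving out both minP1 2 and anti-PD-L1 1), 427 to 2156 in the combination against control, 282 to 1351 against minP1, 79 to 624 against anti-PD-L1 and 1 to 173 in anti-PD-L1 against control, where the 30 higher and 31 lower calls became 27 and 46 with no scaling factors and 53 and 35 with DESeq2.

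Whether replicate numbers pair the samples was not settled. Of 18 same-numbered pairs, 9 correlated over 0.1 in their deviations from the group means, and 7 of 12 libraries correlated best with their own number. The mean correlation was 0.068 in same-numbered pairs and -0.033 in the others. The main fit has no block. With the replicate block the genes called went from 61 to 173 in anti-PD-L1 against control and from 0 to 16 in the interaction. The 100 CPM filter, no scaling factors, library sizes over all symbols and added copies were chosen after seeing the data. The interaction has no fit of only the groups compared, as it uses all 4.

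Of 1324 log2 fold changes of single genes under the alternatives, 1185 kept direction and side of the threshold, 44 no longer passed, 2 newly passed and 93 changed sign, none of them of a gene that had passed in that comparison. The cause was not tested. Signs that changed were as follows. With the Bc1 and Lrrc17 covariate Hmgn2 at -0.14, Hmgn5 at 0.071 in minP1 against control, Hmgn1 at -0.047, Hmgn2 at -0.18, Hmgb1 at -0.23 in anti-PD-L1 against control, Hmgn2 at -0.24, Hmgn3 at -0.39, Hmgb1 at -0.39 in the combination against control, Hmgn2 at -0.096, Hmgn3 at -0.53 in the combination against minP1, Hmgn2 at -0.054, Hmgn5 at 0.0053 in the combination against anti-PD-L1. With the detected-gene covariate Hmgn2 at -0.15, Hmgn5 at 0.18 in minP1 against control, Hmgn1 at -0.15, Hmgn2 at -0.21, Hmgn3 at -0.048, Hmgb1 at -0.18 in anti-PD-L1 against control, Hmgn2 at -0.24, Hmgn3 at -0.45, Hmgb1 at -0.28 in the combination against control, Hmgn2 at -0.093, Hmgn3 at -0.64 in the combination against minP1, Hmgn2 at -0.026, Hmgn5 at 0.10 in the combination against anti-PD-L1. Leaving out both minP1 2 and anti-PD-L1 1 Hmgn2 at -0.12, Hmgb1 at -0.068 in minP1 against control, Hmgb1 at 0.18 in the combination against minP1, Hmgb1 at 0.016 in the combination against anti-PD-L1, Hmgb1 at 0.084 in the interaction. At equal depth Hmga1 at -0.040 in anti-PD-L1 against control, Hmgb1 at -0.040 in the combination against control, Hmgn2 at -0.26 in the interaction. With no scaling factors Hmgn2 at -0.041 in minP1 against control, Hmgb1 at -0.024 in anti-PD-L1 against control, Hmgb1 at -0.034 in the combination against control, Hmgn5 at 0.023 in the interaction. With DESeq2 Hmgn2 at -0.0062 in minP1 against control, Hmgb1 at 0.030 in the combination against anti-PD-L1, Hmgn5 at 0.0026 in the interaction. With RLE factors Hmgn2 at -0.0063 in minP1 against control, Hmgb1 at 0.031 in the combination against anti-PD-L1. With copies added Hmgb1 at 0.024 in the combination against anti-PD-L1, Hmgn2 at -0.024 in the interaction. At 100 CPM or more in 3 libraries Hmgn2 at -0.026 in minP1 against control, Hmgb1 at 0.017 in the combination against anti-PD-L1. At 10 CPM or more in 3 libraries Hmgb3 at 0.019 in minP1 against control. With no filter Hmgb3 at 0.011 in minP1 against control, Hmgn3 at -0.038 in the combination against minP1. With library sizes over all symbols Hmgb1 at 0.020 in the combination against anti-PD-L1. With library sizes lacking Bc1, Lrrc17 and ribosomal RNA Hmgb1 at 0.017 in the combination against anti-PD-L1. With only the groups compared Hmgb1 at 0.020 in the combination against anti-PD-L1. When leaving out 1 library, the sign changed within ranges of Hmgn1 -0.17 to 0.12, Hmgn2 -0.12 to 0.16, Hmgn5 -0.32 to 0.14, Hmgb1 -0.068 to 0.32, Hmgb2 -0.23 to 0.0070, Hmgb3 -0.18 to 0.19 in minP1 against control, Hmgb1 -0.066 to 0.25 in the combination against control, Hmgn3 -0.30 to 0.42, Hmgb1 -0.25 to 0.18 in the combination against minP1, Hmgn2 -0.054 to 0.35, Hmgn3 -0.48 to 0.032, Hmgn5 -0.70 to 0.24, Hmgb1 -0.15 to 0.18 in the combination against anti-PD-L1, Hmgn2 -0.059 to 0.35, Hmgn5 -0.64 to 0.29, Hmgb1 -0.33 to 0.089 in the interaction. Counts of 2 to 35 per library limit Hmgn5 and Hmgb3 most.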
